A study of Mus musculus with 4 samples.

Results

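The 10 Toll-like receptor genes of the deposited tables (Tlr1, Tlr2, Tlr3, Tlr4, Tlr5, Tlr6, Tlr7, Tlr8, Tlr9 and Tlr13) were taken by symbol from 55426 genes. Poly(A) RNA was sequenced in 4 libraries of mouse lineage-negative bone marrow cells that the labels call transformed HSPCs (haematopoietic stem and progenitor cells). In 2 libraries the cells carried the MLL-ENL fusion and in the other 2 the fusion called MLL-ENL ∆YEATS, whose label adds residues 372 to 559. MLL-ENL is a leukaemia fusion that joins the chromatin protein MLL to ENL, and YEATS is the domain of ENL that reads acylated histones. All cells were grown in the same serum-containing medium, and no receptor ligand is named in the labels. Each line stands for its genotype here, and the series calls the libraries of a line technical replicates, so p-values measure only the spread between these libraries. The comparison asks how the receptor transcripts differed between cells with the 2 forms of the fusion.

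Toll-like receptors recognise conserved microbial molecules and signal through a shared cytoplasmic TIR domain to NF-kB and interferon regulatory factors. Tlr1, Tlr2, Tlr4, Tlr5 and Tlr6 act at the plasma membrane on lipids and proteins of microbes. Tlr3, Tlr7, Tlr8, Tlr9 and Tlr13 act in endosomes on nucleic acids and need the chaperone Unc93b1 to get there. In bone marrow they are best known from monocytes, macrophages, neutrophils and dendritic cells, and some are also carried by progenitors.

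Transcripts of 5 receptors were higher in the MLL-ENL ∆YEATS cells: Tlr1 and Tlr5 at the plasma membrane, and Tlr7, Tlr8 and Tlr13 in endosomes. The fitted log2 fold change (MLL-ENL ∆YEATS minus MLL-ENL) ran from 1.03 for Tlr13 to 5.01 for Tlr8. Tlr4, the most abundant receptor per length in every library, did not pass the test, nor did Tlr2, Tlr6 and Tlr9. Tlr3 had 1 count in all libraries together and was not tested. The test was edgeR's quasi-likelihood F-test with Benjamini-Hochberg adjustment over 13245 genes, with a call at an adjusted p under 0.05. Of all genes tested 7.04% were called higher and 9.84% lower, against 5 and 0 of the 9 receptors tested. The count of 0 lower receptors was also 0 at an unadjusted p under 0.05 in edgeR, 0 in DESeq2 and 0 in limma-voom.

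The 4 libraries held 27812855 to 28814798 expected counts, an estimate of the reads per gene. Counts were also put on the depth-scaled CPM scale after TMM scaling, where 3 counts are worth 0.102 to 0.112 CPM. The MLL-ENL libraries differed from each other far more than the MLL-ENL ∆YEATS libraries did, with a chi-square per degree of freedom of 89.8 against 1.99, where sampling noise alone gives a value near 1. All tests lean on this uneven spread: without MLL-ENL replicate 1 or replicate 2, the genes called higher went from 932 to 3743 or 4581, and without an MLL-ENL ∆YEATS library to 573 or 582. The log2 ratio of the 2 MLL-ENL libraries also moved with exonic length over genes (Spearman -0.391), and with that length trend removed the same 5 receptors were called. Of 10 progenitor markers 7 were tested, with 2 called higher (Gata2 and Spi1) and 2 lower (Kit and Meis1). Myb and Cd93 were abundant in all 4 libraries (903 to 1130 and 254 to 309 CPM), while the HSPC markers Cd34, Flt3 and Ly6a were under the filter. Kit, the stem cell factor receptor, was at 50.4 and 66.9 CPM in MLL-ENL and at 2.62 and 3.91 CPM in MLL-ENL ∆YEATS, and Gata2, a transcription factor of progenitors and mast cells, had 15 and 17 against 294 and 290 counts.

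Tlr1 and Tlr6 lie next to each other on chromosome 5 and are close copies, so a stretch that both transcripts share is shown here because reads from it cannot be assigned to one gene by sequence alone. The longest identical run was 229 coding bases, in exon 3 of Tlr1-201 (chr5:64925537-64925765, GRCm38, minus strand) and exon 2 of Tlr6-201 (chr5:64953828-64954056, minus strand). It is written in the sense of the genes, with no base set apart.
Tlr1 and Tlr6: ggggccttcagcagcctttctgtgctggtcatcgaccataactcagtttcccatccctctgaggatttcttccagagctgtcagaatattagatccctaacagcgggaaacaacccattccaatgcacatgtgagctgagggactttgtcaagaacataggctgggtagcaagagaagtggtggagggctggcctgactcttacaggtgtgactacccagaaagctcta
The annotated transcripts of this pair shared 454 windows of 50 bases, which is 13.6% of the windows of Tlr1 and 12.3% of those of Tlr6. No other of the 45 pairs of receptors shared a window. How RSEM, the counting program, divided reads over the shared stretch is not known here, so the values of Tlr1 and Tlr6 carry that uncertainty.

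**Figure D1:**
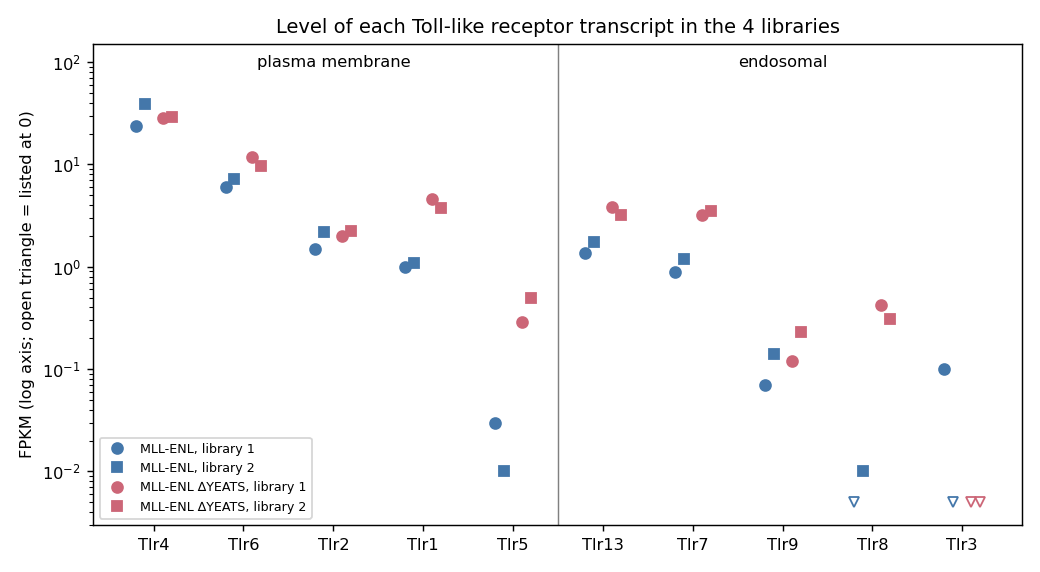
Level of each receptor transcript in FPKM (fragments scaled by length and depth, log axis) in the 4 libraries, with MLL-ENL in blue and MLL-ENL ∆YEATS in red. Tlr4 lies between 23.73 and 38.61 in all libraries, whereas the MLL-ENL ∆YEATS points of Tlr1, Tlr5, Tlr7, Tlr8 and Tlr13 lie above both MLL-ENL points. Those of Tlr6, which was not called, do so too, and open triangles mark a library listed at 0.

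Levels of different genes were compared only in FPKM, which the authors scaled by length. In the MLL-ENL libraries the order of mean FPKM was Tlr4 at 31.2 ± 10.5, Tlr6 at 6.58 ± 0.884, Tlr2 at 1.82 ± 0.488, Tlr13 at 1.54 ± 0.276, Tlr1 at 1.04 ± 0.0636 and Tlr7 at 1.03 ± 0.205 (SD, n = 2). The ranges of Tlr2 and Tlr13 overlapped in that order, though Tlr2 stood above Tlr13 within each library. The order of Tlr1 and Tlr7 differed between the libraries. Tlr9, Tlr3, Tlr5 and Tlr8 were each at or below 0.14 FPKM. In the MLL-ENL ∆YEATS libraries Tlr4 stood at 28.6 ± 0.559 and Tlr6 at 10.8 ± 1.56 FPKM (SD, n = 2). There Tlr1 (4.17 ± 0.573), Tlr13 (3.51 ± 0.41) and Tlr7 (3.34 ± 0.212) followed in mean FPKM, ahead of Tlr2 at 2.13 ± 0.17 (SD, n = 2). Tlr1 overlapped Tlr13 and Tlr13 overlapped Tlr7, so their order was not resolved, while all 3 stood above Tlr2 in both libraries.

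Tlr1 (chr5:64924679-64933563, minus strand), which pairs with Tlr2 to recognise triacylated lipoproteins, had 73 and 79 counts in MLL-ENL and 331 and 275 in MLL-ENL ∆YEATS. The 2 groups did not overlap. On the CPM scale this was 2.77 ± 0.0589 against 10.4 ± 1.19 (SD, n = 2), a 3.77-fold difference with a log2 fold change of 1.91 ± 0.17 (SE; edgeR adjusted p = 0.00215). Tlr6 (chr5:64952031-64960097, minus strand), the partner of Tlr2 for diacylated lipoproteins, lies 18468 bases from Tlr1 and had 264 and 257 counts in MLL-ENL and 310 and 318 in MLL-ENL ∆YEATS. Its counts were above MLL-ENL in both libraries by a small margin that did not pass the test, with a log2 fold change of 0.19 ± 0.13 (SE; edgeR adjusted p = 0.38). In CPM the gap was 1.14-fold for Tlr6 against 3.77-fold for Tlr1, and the difference between the 2 genes was not tested.

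The FPKM of Tlr6 gave a larger gap than its counts. It was 5.95 and 7.20 in MLL-ENL and 11.89 and 9.69 in MLL-ENL ∆YEATS, which is 1.64-fold, and limma on log2(FPKM + 1) gave a log2 difference of 0.64 (adjusted p = 0.0957). Dividing the expected count by FPKM and library total gives the length that stands behind the FPKM, which is not the full annotated transcript length. For Tlr6 that length was 1578 and 1283 nucleotides in MLL-ENL and 905 and 1165 in MLL-ENL ∆YEATS, where the annotation has a transcript of 3677 and one of 446 nucleotides. For Tlr2, which has 1 annotated transcript, of 3014 nucleotides, it was between 2717 and 2739 in all libraries. The FPKM of Tlr6 therefore moved with the length assigned to it as well as with its reads, and what set that length was not tested.

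**Figure D2:**
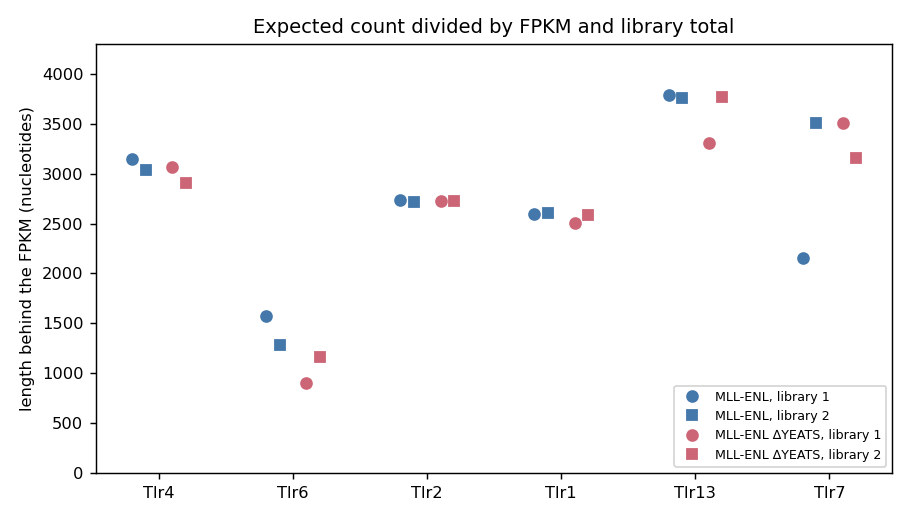
Length behind the FPKM (expected count divided by FPKM and by the library total, in nucleotides) for the 6 receptors with at least 50 counts in every library, with MLL-ENL in blue and MLL-ENL ∆YEATS in red. Tlr2 and Tlr1 keep nearly the same length in the 4 libraries, Tlr6 runs from 905 to 1578, and Tlr7 is at 2158 in MLL-ENL library 1 and between 3152 and 3504 in the others.

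Tlr2 (chr3:83836272-83841767, minus strand), the shared partner of Tlr1 and Tlr6, had 114 and 164 counts in MLL-ENL and 158 and 173 in MLL-ENL ∆YEATS. The groups overlapped. The log2 fold change was 0.18 ± 0.21 (SE; edgeR adjusted p = 0.607). Dropping MLL-ENL replicate 1 gave -0.03, whereas dropping replicate 2 gave 0.42. Tlr4 (chr4:66827584-66930284, plus strand), the receptor of bacterial lipopolysaccharide, had 2103 and 3264 counts in MLL-ENL and 2486 and 2374 in MLL-ENL ∆YEATS. Both MLL-ENL ∆YEATS values lay between the MLL-ENL values. Its log2 fold change was -0.22 ± 0.20 (SE; edgeR adjusted p = 0.499). It was -0.47 when MLL-ENL replicate 1 was dropped and 0.09 when replicate 2 was. For Tlr2 and Tlr4 the direction thus depended on which MLL-ENL library was kept.

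Tlr5 (chr1:182954788-182976044, plus strand), the flagellin receptor, had 2 and 1 counts in MLL-ENL and 21 and 15 in MLL-ENL ∆YEATS. It passed the filter on low counts only through the MLL-ENL ∆YEATS libraries, so only a higher level there could bring it into the test. The ratio of summed counts per depth was 11.4, with a 95% counting interval of 3.59 to 57.6, and the fitted log2 fold change was 3.40 ± 0.55 (SE; edgeR adjusted p = 0.014). Its level stayed low in MLL-ENL ∆YEATS, at 0.29 and 0.49 FPKM. Counting intervals cover counting error only, since the reads carry no molecular identifiers.

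Among the endosomal receptors, Tlr7 (chrX:167304929-167330558, minus strand), a receptor of single-stranded RNA, had 54 and 115 counts in MLL-ENL and 322 and 310 in MLL-ENL ∆YEATS. Both MLL-ENL ∆YEATS libraries stood above both MLL-ENL libraries, which were themselves apart at 2.02 and 4.09 CPM. The mean rose from 3.05 ± 1.47 to 10.9 ± 0.106 CPM (SD, n = 2), a log2 fold change of 1.83 ± 0.32 (SE; edgeR adjusted p = 0.0184). Its size rested on the MLL-ENL library used, with 1.41 without replicate 1 and 2.43 without replicate 2. Tlr13 (chrX:106143204-106160493, plus strand), which recognises bacterial ribosomal RNA, had 144 and 182 counts in MLL-ENL and 362 and 342 in MLL-ENL ∆YEATS. The groups were apart, with 5.92 ± 0.774 against 12.1 ± 0.279 CPM (SD, n = 2) and a log2 fold change of 1.03 ± 0.16 (SE; edgeR adjusted p = 0.0114).

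Tlr8 (chrX:167242696-167264329, minus strand), related to Tlr7 and also a sensor of RNA breakdown products, had 0 and 1 counts in MLL-ENL and 24 and 18 in MLL-ENL ∆YEATS. Like Tlr5 it entered the test only through the MLL-ENL ∆YEATS libraries. The ratio of summed counts per depth was 39.7 with a 95% counting interval of 6.75 to 1610, and the fitted log2 fold change was 5.01 ± 0.72 (SE; edgeR adjusted p = 0.0101), with 4.19 without MLL-ENL replicate 1 and 7.36 without replicate 2. The transcript was listed at 0 and 0.01 FPKM in MLL-ENL and reached 0.42 and 0.31 in MLL-ENL ∆YEATS. Tlr9 (chr9:106222598-106226883, plus strand), the receptor of unmethylated CpG DNA, had 6 and 12 counts in MLL-ENL and 11 and 21 in MLL-ENL ∆YEATS. These overlapped, and its log2 fold change of 0.75 ± 0.52 (SE; edgeR adjusted p = 0.376) was not resolved at this depth. Tlr3 (chr8:45395665-45411080, minus strand), the receptor of double-stranded RNA, had 1 count in MLL-ENL library 1 and 0 in the rest, which is under the floor of 3 counts in both groups.

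**Figure D3:**
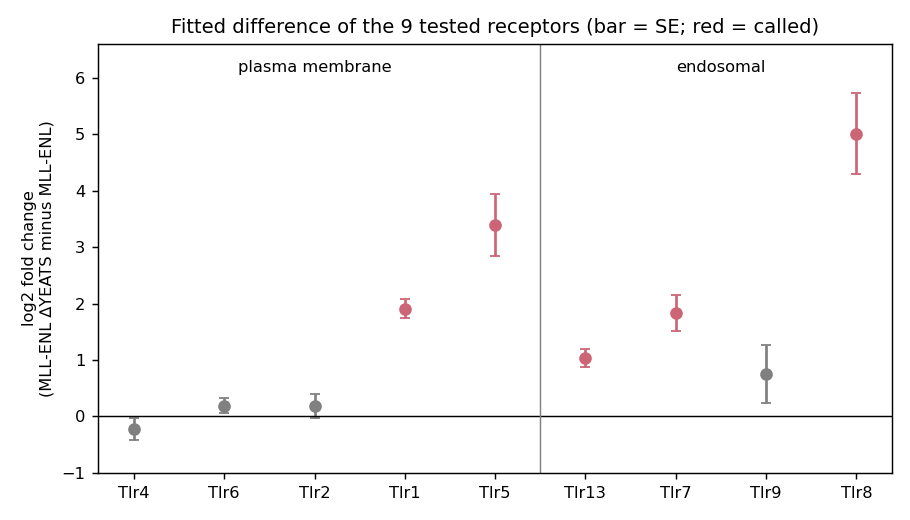
Fitted log2 fold change (MLL-ENL ∆YEATS minus MLL-ENL) with its SE for the 9 tested receptors, plasma membrane receptors on the left and endosomal ones on the right. The called receptors, in red, run from 1.03 to 5.01, and those not called, in grey, from -0.22 to 0.75.

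Of the 5 plasma membrane receptors 2 were called higher, and of the 4 endosomal receptors tested 3 were. The median log2 fold change was 0.19 (from -0.22 to 3.40) over the plasma membrane receptors and 1.43 (from 0.75 to 5.01) over the tested endosomal receptors, and over all genes tested it was -0.01. In CPM, 6 of the 9 tested receptors had both MLL-ENL ∆YEATS libraries above both MLL-ENL libraries, 3 in each class, where 32.1% of all genes tested did. Tlr5 and Tlr8 could be tested only because they were high in MLL-ENL ∆YEATS, so these counts and medians describe the receptors and support nothing beyond them. The difference between the classes was not tested, since receptors are not replicates.

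Summed over the class, the plasma membrane receptors had 32.2 and 49.1 FPKM in MLL-ENL and 46.9 and 45.1 in MLL-ENL ∆YEATS. The groups overlapped, and Tlr4 made up 68.6% and 74.0% of the summed FPKM of all 10 receptors in MLL-ENL and 51.7% and 55.2% in MLL-ENL ∆YEATS. Without Tlr4 the plasma membrane sum was 8.46 and 10.5 FPKM in MLL-ENL and 18.8 and 16.2 in MLL-ENL ∆YEATS, which did not overlap. More than any other gene this remainder is Tlr6, whose FPKM moved with its assigned length while its counts differed 1.14-fold. The endosomal receptors summed to 2.41 and 3.07 FPKM in MLL-ENL and 7.53 and 7.25 in MLL-ENL ∆YEATS. Their share of the summed FPKM was 6.97% and 5.89% in MLL-ENL and 13.8% in each MLL-ENL ∆YEATS library. These values also depend on assigned length. For Tlr7 it was 2158 nucleotides in MLL-ENL library 1 and between 3152 and 3504 in the others. In bulk RNA a change in the number of cells that carry a receptor and a change in transcripts per cell cannot be told apart.

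**Figure D4:**
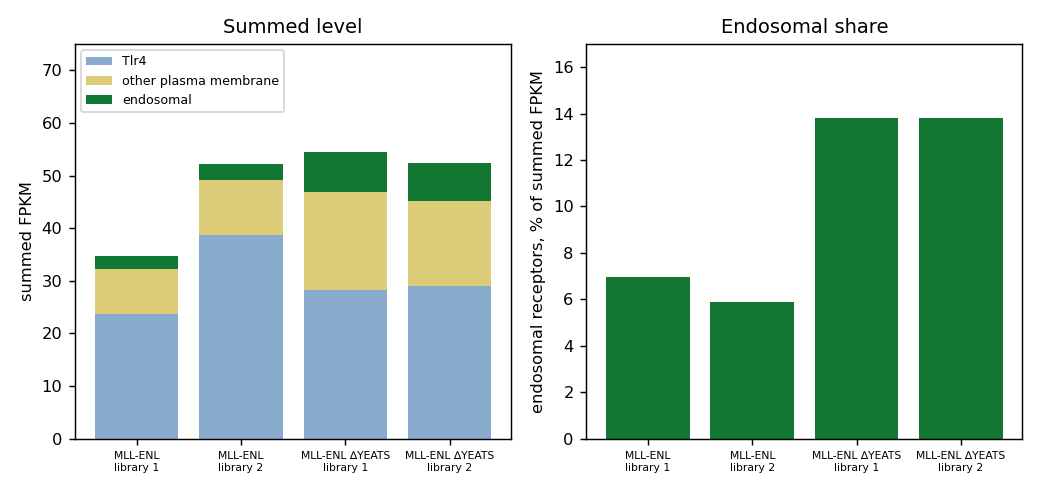
Left, summed FPKM of the 10 receptors in each library, split into Tlr4, the other plasma membrane receptors and the endosomal receptors; right, the endosomal share of that sum in percent. The endosomal share is 6.97% and 5.89% in MLL-ENL and 13.8% in both MLL-ENL ∆YEATS libraries, while the Tlr4 part overlaps between the groups.

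Tlr7, Tlr8 and Tlr13, the 3 endosomal receptors that were higher, all lie on chromosome X, where 7.58% of 396 tested genes were called higher. Tlr8 and Tlr7 are 40600 bases apart. The nearest tested genes on the outer sides of this pair were not called: Tmsb4x, 33381 bases from Tlr8, was at 841 and 713 CPM in MLL-ENL and 582 and 587 in MLL-ENL ∆YEATS (edgeR adjusted p = 0.0824), and Prps2, 15764 bases from Tlr7, had a log2 fold change of 0.41 (edgeR adjusted p = 0.125). Beside Tlr13, Atp7a was not called and Pgk1 was lower by a log2 fold change of -0.56 (edgeR adjusted p = 0.0397). Over all receptors, 14 nearest tested genes were no receptor themselves, of which 1 was called higher (Capn2, 437180 bases from Tlr5, log2 fold change 2.51) and 2 lower (Pgk1 and Tmem131l, the neighbour of Tlr2). The shares to set beside these counts are 7.04% higher and 9.84% lower over all genes tested.

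Promoters of 3 receptors that were higher are shown. They were picked because they hold the same short ETS-type motif, so their sharing it is no result. Any link between the motif and the levels was not tested. Windows of 250 bases before to 50 after the start came from RefSeq (GRCm38.p6) for 8 of the 10 receptors, with none for Tlr4 and Tlr7, and are printed without transcribed bases. The positions are chr5:64933564-64933808 (minus strand) for Tlr1, chrX:167264330-167264579 (minus strand) for Tlr8 and chrX:106143025-106143203 (plus strand) for Tlr13. They are written in the sense of the gene, and capitals mark every match to a motif searched.
Tlr1: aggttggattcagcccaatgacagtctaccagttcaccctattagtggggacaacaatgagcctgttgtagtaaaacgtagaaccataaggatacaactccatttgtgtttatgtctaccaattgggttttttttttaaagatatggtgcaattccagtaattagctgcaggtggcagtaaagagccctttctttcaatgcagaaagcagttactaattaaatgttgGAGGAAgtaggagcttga
Tlr8: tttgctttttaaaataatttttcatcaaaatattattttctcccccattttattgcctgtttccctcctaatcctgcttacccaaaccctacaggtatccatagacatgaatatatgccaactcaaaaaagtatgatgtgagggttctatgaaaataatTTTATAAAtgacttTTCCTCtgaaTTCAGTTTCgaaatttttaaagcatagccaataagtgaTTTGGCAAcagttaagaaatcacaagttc
Tlr13: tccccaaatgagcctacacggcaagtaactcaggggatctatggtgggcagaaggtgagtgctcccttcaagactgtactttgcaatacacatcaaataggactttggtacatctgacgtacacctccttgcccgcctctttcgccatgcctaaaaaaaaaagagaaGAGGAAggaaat
Distances were counted from the RefSeq start, at 64933558 for Tlr1, 167264329 for Tlr8 and 106143275 for Tlr13, and the Tlr1 and Tlr13 starts differ from the GENCODE gene ends given above. The core GAGGAA, bound by PU.1, the product of Spi1, lay 23 bases before the start in Tlr1, 83 in Tlr13 and, on the opposite strand, 77 in Tlr8. It was also present in Tlr9, which was not called, and in no window of Tlr5, which was. The other RefSeq window of Tlr1, with its start at 64932699, held no match to any motif searched. In all, 4 of 10 receptor windows held GAGGAA on either strand, against 23.3% of 32851 RefSeq windows. The interferon regulatory factor repeat GAAANNGAA stood in windows of Tlr6 and Tlr8 (7.13% of all windows), and the C/EBP motif TTGCNNAA in Tlr3, Tlr6 and Tlr8 (9.56%). The NF-kB type motif GGNNNTTCC stood in Tlr2, Tlr3, Tlr5 and Tlr6 (15.7%), the AP-1 motif TGANTCA in Tlr9 (6.75%) and the TATA box TATAAA in Tlr6 and Tlr8 (12.4%). Matches were sought on both strands and the TATA box can overlap itself, and a match is a run of letters and not a measured binding site.

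Some cell type markers moved beside the receptors, where 7.04% of all genes tested were called higher and 9.84% lower. Of 10 monocyte and macrophage markers 8 were tested, 5 were called higher (Ms4a6c, Mpeg1, Csf1r, Adgre1 and Ccr2) and 1 lower, Ly6c2, which dominates their summed level of 1570 and 1590 CPM in MLL-ENL and 1210 and 1230 in MLL-ENL ∆YEATS. Mertk had at most 1 count in a library. Of 10 neutrophil markers 6 were called higher, S100a8 and S100a9 among them, and 1 lower (Ngp). Their summed level was 160 and 134 CPM in MLL-ENL and 395 and 410 in MLL-ENL ∆YEATS. At an unadjusted p under 0.05 in edgeR, 6 neutrophil markers were higher and 3 lower. For the monocyte and macrophage markers these counts were 5 and 2. The part of these shifts in the receptor values was not tested. The B cell genes Ms4a1 and Pax5 and the T and NK cell genes Cd3e, Cd3g, Cd8a, Cd4, Trac and Ncr1 were at 0 in all 4 libraries, and Thy1, the one tested gene of the 8 T and NK cell markers, was called lower, with 112 and 88 counts in MLL-ENL and 4 and 0 in MLL-ENL ∆YEATS (edgeR adjusted p = 0.00444). Of 9 markers of conventional dendritic cells 2 were tested and both were called. Itgax was higher, with 1 and 2 counts in MLL-ENL and 66 and 53 in MLL-ENL ∆YEATS (edgeR adjusted p = 0.00169). H2-Ab1 was lower, with 118 and 97 against 2 and 0 counts (edgeR adjusted p = 0.00182). Itgax passed the filter on low counts only through the MLL-ENL ∆YEATS libraries, and H2-Ab1 and Thy1 only through the MLL-ENL libraries. Each could be tested only because it was high there. Of 8 markers of plasmacytoid dendritic cells, which are known for Tlr7 and Tlr9, 2 were tested and 0 were called by edgeR in either direction (1 lower at an unadjusted p under 0.05, 1 lower by DESeq2 and 0 by limma-voom), with a summed level of 53.0 and 39.9 CPM in MLL-ENL and 42.6 and 41.0 in MLL-ENL ∆YEATS.

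Over all genes tested, 7.04% were called higher and 9.84% lower, which is the share to set beside each list from here on. Of 9 co-receptors and accessory proteins 7 were tested, and edgeR called 0 higher (1 at an unadjusted p under 0.05, 0 by DESeq2 and 0 by limma-voom). It called 1 lower, and the median log2 fold change of the list was -0.07. That gene was Rftn1, a lipid raft protein known to take part in Tlr4 and Tlr3 uptake, which fell from 6.61 and 6.15 CPM in MLL-ENL to 0.17 and 0.0349 in MLL-ENL ∆YEATS (log2 fold change -5.89 ± 0.42, SE; edgeR adjusted p = 0.00106). With 5 and 1 counts left in MLL-ENL ∆YEATS the size is loose: it was -7.34 without replicate 1 and -5.20 without replicate 2 of that group. Cd14, which hands lipopolysaccharide to Tlr4, was at 9.67 and 10.1 CPM in MLL-ENL and 7.05 and 6.91 in MLL-ENL ∆YEATS (edgeR adjusted p = 0.0641), and both MLL-ENL ∆YEATS values were the lower ones. Ly96, which forms the lipopolysaccharide pocket with Tlr4, had 15 and 8 counts in MLL-ENL and 24 and 35 in MLL-ENL ∆YEATS (edgeR adjusted p = 0.108).

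Of 15 genes for folding, trafficking and cleavage of the receptors 13 were tested, 3 were higher and 0 lower by edgeR (2 lower at an unadjusted p under 0.05, 0 by DESeq2 and 0 by limma-voom), with a median log2 fold change of 0.01. Unc93b1, the chaperone of the endosomal receptors, was at 125 and 116 CPM in MLL-ENL and 145 and 142 in MLL-ENL ∆YEATS and did not pass the test (edgeR adjusted p = 0.169). Rab7b, a GTPase of endosomal transport, had 138 and 76 counts in MLL-ENL and 419 and 392 in MLL-ENL ∆YEATS, a log2 fold change of 1.83 ± 0.30 (SE; edgeR adjusted p = 0.0144). Gramd4, linked to Tlr9 transport, was higher by 0.74 ± 0.14 (SE; edgeR adjusted p = 0.0204), but this call was lost without MLL-ENL ∆YEATS replicate 1 (adjusted p = 0.159) or replicate 2 (adjusted p = 0.117). Ctsl, an endosomal protease, was the third called gene at 0.53 ± 0.13 (SE; edgeR adjusted p = 0.0478), and lost its call without either MLL-ENL ∆YEATS library (adjusted p = 0.504 and 0.39).

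All 6 TIR adaptors were tested, 0 were higher by edgeR (1 at an unadjusted p under 0.05, 0 by DESeq2 and 0 by limma-voom) and 2 lower, with a median log2 fold change of -0.12. Myd88, the adaptor of every receptor here but Tlr3, was at 39.1 CPM in both MLL-ENL libraries and 38.7 and 38.2 in MLL-ENL ∆YEATS, a log2 fold change of -0.02 ± 0.11 (SE; edgeR adjusted p = 0.896). Sarm1, a TIR protein with NAD-cleaving activity, fell from 98 and 102 counts to 2 and 4 (log2 fold change -5.08 ± 0.35, SE; edgeR adjusted p = 0.000986). Ticam1, the adaptor of Tlr3 and of Tlr4 in endosomes, fell by 0.58 ± 0.12 on the log2 scale (SE; edgeR adjusted p = 0.0272), and without MLL-ENL ∆YEATS replicate 1 or 2 its adjusted p was 0.412 or 0.347. Ticam2, which links Tlr4 to Ticam1, had 187 and 225 counts in MLL-ENL and 336 and 300 in MLL-ENL ∆YEATS (edgeR adjusted p = 0.0648).

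Of 20 kinases and ubiquitin ligases, all tested, 0 were higher and 2 lower by edgeR, where 7.04% and 9.84% of all genes tested were. Higher were 4 at an unadjusted p under 0.05, 1 by DESeq2 and 0 by limma-voom. The median log2 fold change was -0.04. Peli2, a ubiquitin ligase of the Irak complex, fell from 14.7 and 19.1 CPM to 1.53 and 1.78 (log2 fold change -3.35 ± 0.21, SE; edgeR adjusted p = 0.000745). Irak4, the first kinase after Myd88, fell by 0.87 ± 0.11 on the log2 scale (SE; edgeR adjusted p = 0.00625), with an adjusted p of 0.0765 or 0.0865 without MLL-ENL ∆YEATS replicate 1 or 2. Of 12 transcription factors of the response 4 were higher and 0 lower by edgeR (1 at an unadjusted p under 0.05, 0 by DESeq2 and 0 by limma-voom), with a median of 0.08. Irf5, which acts downstream of Myd88, had 63 and 56 counts in MLL-ENL and 228 and 205 in MLL-ENL ∆YEATS, a log2 fold change of 1.78 ± 0.19 (SE; edgeR adjusted p = 0.00344). The NF-kB members Relb and Rel were higher by 1.06 ± 0.21 and 1.03 ± 0.18 (SE; edgeR adjusted p = 0.0268 and 0.0191), where Relb lost its call without MLL-ENL ∆YEATS replicate 1 or 2 (adjusted p = 0.105 and 0.217). Spi1, the gene of PU.1, was at 168 and 183 CPM in MLL-ENL and 244 and 241 in MLL-ENL ∆YEATS, a log2 fold change of 0.46 ± 0.11 (SE; edgeR adjusted p = 0.0404) whose call was lost without MLL-ENL ∆YEATS replicate 1 or 2 (adjusted p = 0.564 and 0.549), with the replicate block (0.0532) and without the filter on low counts (0.0557).

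Of 21 negative regulators 18 were tested, 3 were higher and 2 lower, with a median log2 fold change of 0.06. The rising genes were Tnfaip3, a deubiquitinase that limits NF-kB (1.68 ± 0.18, SE; edgeR adjusted p = 0.00399), Zfp36, which destabilises cytokine transcripts (0.99 ± 0.13, SE; edgeR adjusted p = 0.00673), and Bcl3, whose adjusted p was 0.122 or 0.0743 without MLL-ENL ∆YEATS replicate 1 or 2. Sigirr, a TIR protein that dampens receptor signals, fell from 136 and 95 counts to 8 and 6 (log2 fold change -4.11 ± 0.37, SE; edgeR adjusted p = 0.00211). Trim30a, which promotes loss of the Tab proteins, fell from 346 and 514 counts to 64 and 52 (log2 fold change -2.96 ± 0.24, SE; edgeR adjusted p = 0.00159).

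Of 22 cytokine and chemokine outputs 8 were tested, and edgeR called 1 higher and 0 lower. Higher at an unadjusted p under 0.05 in edgeR were 5, with 2 by DESeq2 and 1 by limma-voom. Lower were 0 at an unadjusted p under 0.05, 0 by DESeq2 and 0 by limma-voom. The median log2 fold change of the list was 0.55, and Il6, Il12b, Cxcl1, Ccl2 and Ifnb1 were at 0 in all libraries. Il12a, a subunit of interleukin 12, had 7 and 9 counts in MLL-ENL and 142 and 180 in MLL-ENL ∆YEATS. Its log2 fold change was 4.23 ± 0.30 (SE; edgeR adjusted p = 0.00106). Il12a passed the filter on low counts only through the MLL-ENL ∆YEATS libraries, and Rftn1, Sarm1 and Sigirr passed it only through the MLL-ENL libraries, so each could be tested only because it was high there. Among the called genes named from these lists, limma on log2(FPKM + 1) did not call Bcl3 (adjusted p = 0.0544), Rel (0.0544), Relb (0.076), Spi1 (0.086), Ctsl (0.126) and Ticam1 (0.138). Ctsl also lost its call with a minimum of 5 CPM (adjusted p = 0.0561) or with libraries scaled by their totals (0.0603), as did Ticam1 with the latter (0.0503) and Relb in DESeq2 (0.0556).

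**Figure D5:**
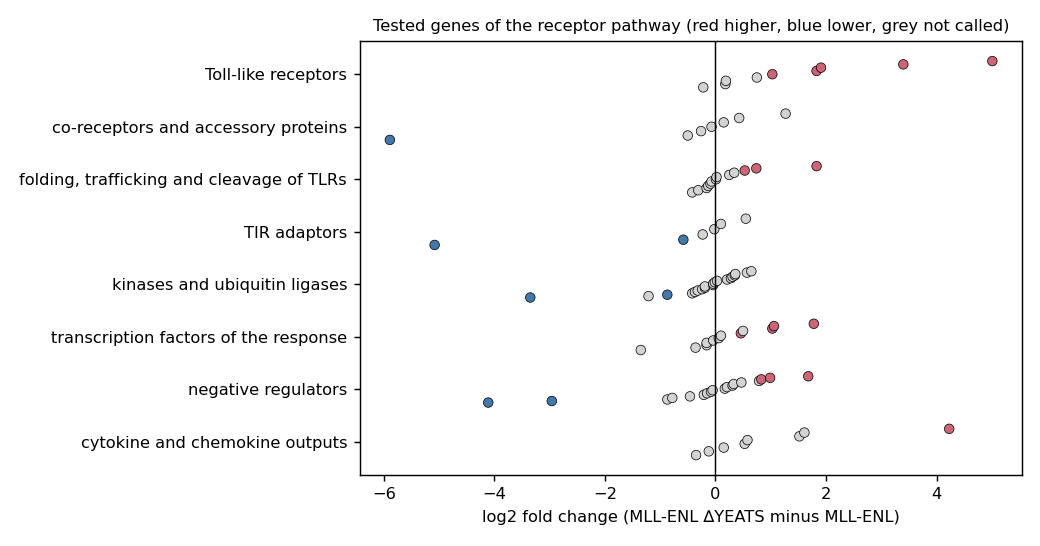
Fitted log2 fold change (MLL-ENL ∆YEATS minus MLL-ENL) of the tested genes of each list of the receptor pathway, 1 point a gene, with called higher in red, called lower in blue and not called in grey. No receptor is blue and 5 are red, and the lists of co-receptors, adaptors and kinases hold no red point. Of all genes tested 7.04% were called higher and 9.84% lower.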

How the data were processed

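Processed tables of 4 poly(A) RNA libraries were used. Per the submitters' processing notes, the tools were RSEM 1.3.3, STAR 2.7.8a, FastQC 0.11.8 and cutadapt 2.3, on build GRCm38 (mm10), with settings, annotation release and strand not given in the sources used here. The authors deposited expected counts per gene (RSEM estimates, whole numbers as deposited) and FPKM, which the authors scaled by length and library size. Of 55426 genes 33627 were at 0 throughout. GENCODE M21 gave positions, and reads of overlapping or antisense genes cannot be told apart.

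Groups came from the sample titles. Genes were filtered with filterByExpr, scaled by TMM and tested with edgeR 4.0.16 (R 4.3.3) by its quasi-likelihood F-test (legacy glmQLFit) with Benjamini-Hochberg adjustment over 13245 genes. Residual degrees of freedom were 2, the prior 3.41. SE is the log2 fold change divided by the square root of F. limma 3.58.1, with pseudocounts of 1 and 0.1 on FPKM, and DESeq2 1.42.0 served as alternatives. The fit was tested on simulated data with the same spread in both groups. The uneven spread of the real libraries was not simulated. Count ratios carry exact 95% intervals.

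The receptors and gene lists were chosen with earlier results of these data known. By rule, all 10 receptors are named, with the nearest tested gene on each side counted, and of each other list the 2 called genes that changed most up and the 2 that changed most down, provided their higher group averaged 1 CPM or more (with none called, the 2 smallest p). Cd14, Ly96, Unc93b1, Myd88, Ticam2, Ctsl, Rel, Spi1, Bcl3, Msr1 and most markers were named after their values were seen.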

Additional observations from a re-analysis of the deposited data

How the results depend on the processing

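The 5 higher receptors were called under 14 of 16 alternatives. Those that leave out a library keep 1 library in a group, so their calls rest on the spread of the other group alone. A minimum of 5 CPM in 2 libraries left 3 receptors called, since it removed Tlr5, Tlr8 and Tlr9 from the test, with 545 genes called higher and 805 lower over all genes. limma on log2(FPKM + 1) without a filter called 0 receptors (adjusted p = 0.0588 for Tlr1, 0.114 for Tlr5, 0.0734 for Tlr7, 0.0582 for Tlr8 and 0.128 for Tlr13), with 293 genes higher and 381 lower, and with the filter it called 837 genes lower; the cause was not tested. Same replicate numbers do not pair these libraries by any label, and the within-group deviations of same-numbered libraries correlated at -0.0677 over genes. A fit with the replicate number as a block called 1435 genes higher and the same 5 receptors. Leaving out a library in turn gave 573 to 4581 genes higher, 859 to 4507 lower, and 0 to 1 receptors lower, the 1 being Tlr4 without MLL-ENL replicate 1. Tlr6 had a log2 fold change of 0.25 without that library. Without a library in turn Tlr2 ran from -0.03 to 0.42 and Tlr4 from -0.47 to 0.09, and Tlr8 from 4.19 to 7.36. Myd88 was at 0.03, not called, with scaling by library totals, with the gene-length trend removed and under all 3 limma fits on FPKM. Over 38 named genes, 511 of the recomputed values kept direction and side of the threshold, 62 lost a call, 17 gained one and 7 changed sign. Depth limits Tlr3, Tlr5, Tlr8 and Tlr9.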

Other observations

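Receptors related to the Toll-like receptors were read from the same fit, in 2 lists that were added after the files were in hand. The shares over all genes tested were 7.04% higher and 9.84% lower. Of 6 receptors of the interleukin 1 family that share the TIR domain, 4 were tested, 1 was called higher and 0 lower by edgeR (1 lower at an unadjusted p under 0.05, 0 by DESeq2 and 0 by limma-voom). Il1r1, the signalling receptor for interleukin 1, had 4 and 6 counts in MLL-ENL and 30 and 21 in MLL-ENL ∆YEATS, and passed the filter on low counts only through the latter, with a log2 fold change of 2.24 ± 0.41 (SE; edgeR adjusted p = 0.0208), not called by limma on log2(FPKM + 1) (adjusted p = 0.124). Its co-receptor Il1rap had 27.7 and 42.6 CPM in MLL-ENL and 59.1 and 60.9 in MLL-ENL ∆YEATS and did not pass the test (log2 fold change 0.77; edgeR adjusted p = 0.0687). It was called higher in DESeq2 (adjusted p = 0.00453), with the replicate block (0.000197) and with the gene-length trend removed (0.0212). Its log2 fold change was 0.50 without MLL-ENL replicate 1 and 1.12 without replicate 2.

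Of 16 other pattern receptors 14 were tested, 2 were called higher and 2 lower. Clec7a, the receptor for fungal beta-glucan, had 298 and 268 counts in MLL-ENL and 578 and 579 in MLL-ENL ∆YEATS (log2 fold change 0.95 ± 0.13, SE; edgeR adjusted p = 0.0093). The scavenger receptor Msr1, which likewise passed the filter only through MLL-ENL ∆YEATS, was the other higher gene at 1.66 ± 0.40 (SE; edgeR adjusted p = 0.0448), a call that was lost without MLL-ENL ∆YEATS replicate 1 or 2 (adjusted p = 0.165 and 0.0942) and in DESeq2 (adjusted p = 0.237). The inflammasome receptors Nlrp3 and Nlrc4 fell by 1.86 ± 0.22 and 1.18 ± 0.15 on the log2 scale (SE; edgeR adjusted p = 0.00525 and 0.0067), with 120 and 149 against 36 and 42 counts for Nlrp3 and 481 and 616 against 266 and 243 for Nlrc4.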
